A study of Mus musculus with 4 samples.

Results

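The 10 genes described here mark the primed epiblast and the first lineages that leave it: Fgf5, Otx2, Pou3f1, Lef1, Zic2, Nodal, Lefty1, T, Eomes and Mixl1. They were taken by name for their roles in early development, by a rule that used no measured value, and all 10 were found among the 22367 protein-coding genes of the annotation. In epiblast-like cells (EpiLCs), KDM5C peaks lay at the promoters of 5 of them, Otx2, Pou3f1, Lef1, Zic2 and Lefty1, and none lay at or within 20 kb of the other 5, Fgf5, Nodal, T, Eomes and Mixl1. Of all protein-coding genes, 24.0% had a promoter peak and 41.2% had a peak in the gene or within 20 kb. The promoter count depended on the window, and within 500 bp of a start site it was 2 of 10, beside 21.8% of all genes. Most promoter peaks of these genes sat beside the annotated transcription start sites (TSSs) rather than over them. The strongest peaks at the Lef1, Zic2 and Lefty1 loci lay several kilobases upstream of these genes, and that of the Zic2 locus lay within Zic5. How common such a layout is among all genes was not counted.

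KDM5C, also called SMCX, is an X-linked histone demethylase that removes methyl groups from di- and trimethylated lysine 4 of histone H3, marks found at active promoters, and leaves the monomethylated form that is common at enhancers. When naive pluripotent cells are released into primed pluripotency, they switch off the naive network and switch on a set of epiblast genes, among them the growth factor gene Fgf5 and the transcription factor genes Otx2, Pou3f1, Zic2 and Lef1. Nodal signalling, held in check by its inhibitor Lefty1, keeps the epiblast primed and, with Wnt signalling, later induces T (Brachyury), Eomes and Mixl1 in the primitive streak, from which mesoderm and endoderm arise.

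ChIP-Seq with an antibody against KDM5C was performed on male C57BL/6J EpiLCs at day 2 of differentiation. The WT cells carried an intact Kdm5c and the KO cells a deletion of Kdm5c exons that encode its JmjC demethylase domain, and the single X chromosome of both carried a Tsix deletion (XΔTsixY and XΔTsix;ΔKdm5cY). Each genotype was represented by 1 immunoprecipitated sample and 1 input sample, and the deposited data hold 1 peak list for each genotype. The study's methods give more than 1 WT line behind the WT list and a single sample behind the KO list. They place day 2 after the EpiLC stage, whereas the labels describe only the conversion to EpiLCs. The methods also name a background other than C57BL/6J for the Tsix mutant strain, and a mixed one for the conditional Kdm5c strain. Peak lists hold no measure of expression, so the cell type could not be checked against its marker transcripts. The WT list held 6933 peaks and the KO list 47, of which 6916 and 44 lay on assembled chromosomes and were used. With 1 list per genotype there was no replicate error and no test, and every count below is a description of these lists.

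A peak was assigned to a promoter when its midpoint lay within 1 kb of any annotated TSS of the gene, and to a locus when it overlapped the gene or the 20 kb on either side. Peak strength is given as the deposited score, which is 10 times the −log10 of the q-value with decimals dropped, and as the deposited fold enrichment of immunoprecipitate over input. The following sequences are from the mm9 assembly and read in the direction of transcription of the named gene, with every CG pair in capitals. The first set shows the 200 bp around the summits of the peaks on which the account turns, namely the 3 strong upstream peaks and the promoter peaks of Zic2, Pou3f1 and Otx2.
Lef1 upstream peak, chr3:130809174-130809373, plus strand: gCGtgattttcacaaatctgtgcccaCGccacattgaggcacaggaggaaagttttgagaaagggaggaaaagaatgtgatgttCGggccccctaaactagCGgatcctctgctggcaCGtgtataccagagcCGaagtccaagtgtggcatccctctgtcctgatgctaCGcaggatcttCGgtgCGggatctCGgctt
Zic2 upstream peak within Zic5, chr14:122863189-122863388, plus strand: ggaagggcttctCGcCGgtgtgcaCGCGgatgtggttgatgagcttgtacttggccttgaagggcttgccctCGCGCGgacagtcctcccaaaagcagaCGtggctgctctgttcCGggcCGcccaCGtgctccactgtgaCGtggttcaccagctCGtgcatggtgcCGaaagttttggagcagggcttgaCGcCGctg
Lefty1 upstream peak, chr1:182855180-182855379, plus strand: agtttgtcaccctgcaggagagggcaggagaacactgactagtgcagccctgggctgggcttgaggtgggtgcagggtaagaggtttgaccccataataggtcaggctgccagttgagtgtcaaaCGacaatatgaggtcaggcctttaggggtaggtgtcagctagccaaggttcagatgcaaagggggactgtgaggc
Zic2 promoter peak, chr14:122874154-122874353, plus strand: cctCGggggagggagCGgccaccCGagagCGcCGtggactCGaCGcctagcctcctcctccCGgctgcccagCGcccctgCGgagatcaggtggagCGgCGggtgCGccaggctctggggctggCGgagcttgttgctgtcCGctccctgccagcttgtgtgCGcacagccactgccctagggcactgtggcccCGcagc
Pou3f1 promoter peak, chr4:124334143-124334342, plus strand: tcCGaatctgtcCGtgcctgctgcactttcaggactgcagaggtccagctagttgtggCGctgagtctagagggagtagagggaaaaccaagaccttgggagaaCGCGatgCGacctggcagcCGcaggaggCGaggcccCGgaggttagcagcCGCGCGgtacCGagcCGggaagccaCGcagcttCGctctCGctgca
Otx2 intronic peak, chr14:49285821-49286020, minus strand: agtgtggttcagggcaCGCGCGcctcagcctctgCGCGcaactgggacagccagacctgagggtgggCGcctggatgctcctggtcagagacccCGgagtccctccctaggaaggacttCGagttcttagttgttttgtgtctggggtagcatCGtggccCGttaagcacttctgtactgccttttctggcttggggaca

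The Zic2 and Pou3f1 promoter windows each held 17 CG pairs and the Zic5 window held 16, whereas the Lefty1 upstream window held 1. The Lef1 upstream and Otx2 windows each held 10. For contrast, the next set shows the 200 bp directly upstream of the most upstream TSS of Pou3f1, which lay between its 2 peaks, and of 4 genes without a peak.
Pou3f1 between its peaks, chr4:124334689-124334888, plus strand: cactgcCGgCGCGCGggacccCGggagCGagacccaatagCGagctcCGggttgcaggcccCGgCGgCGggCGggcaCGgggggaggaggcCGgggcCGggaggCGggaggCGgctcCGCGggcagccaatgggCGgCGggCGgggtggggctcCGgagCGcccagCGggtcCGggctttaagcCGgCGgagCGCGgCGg
Mixl1 upstream of the TSS, chr1:182627166-182627365, minus strand: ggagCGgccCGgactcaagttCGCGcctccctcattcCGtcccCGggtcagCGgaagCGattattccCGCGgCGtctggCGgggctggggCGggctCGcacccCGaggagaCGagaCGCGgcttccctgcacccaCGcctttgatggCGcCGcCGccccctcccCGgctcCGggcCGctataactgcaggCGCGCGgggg
T upstream of the TSS, chr17:8627088-8627287, plus strand: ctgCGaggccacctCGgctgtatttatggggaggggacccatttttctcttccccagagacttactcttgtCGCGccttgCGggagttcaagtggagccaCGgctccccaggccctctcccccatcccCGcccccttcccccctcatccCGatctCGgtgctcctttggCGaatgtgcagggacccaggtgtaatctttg
Eomes upstream of the TSS, chr9:118387130-118387329, plus strand: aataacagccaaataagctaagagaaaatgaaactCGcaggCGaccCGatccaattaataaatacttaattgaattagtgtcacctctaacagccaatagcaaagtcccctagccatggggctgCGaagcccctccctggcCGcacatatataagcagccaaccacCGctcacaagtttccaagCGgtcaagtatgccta
Nodal upstream of the TSS, chr10:60880520-60880719, plus strand: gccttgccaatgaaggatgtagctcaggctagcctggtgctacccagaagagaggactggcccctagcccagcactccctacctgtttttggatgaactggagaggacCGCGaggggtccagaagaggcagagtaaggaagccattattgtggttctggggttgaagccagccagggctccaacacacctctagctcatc

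The uncalled stretch at Pou3f1 was the densest of these sequences, with 31 CG pairs. Among the genes without a peak, Mixl1 held 28 pairs, T 10, Eomes 7 and Nodal 2, and the same stretch of Fgf5, not printed, held 19. The Mixl1 and Fgf5 stretches held more CG pairs than any summit window printed here, but some summit windows not printed were denser than the Fgf5 stretch. The windows of the Lef1 intronic peak and the downstream Zic2 promoter peak held 24 and 23 pairs. Those of the peaks at Tmem63a and Gm10837 held 26 and 20, and that of the Lef1 peak in UTR held 16.

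The count of 5 of 10 genes with a promoter peak stands beside 24.0% of all protein-coding genes (5358 of 22367). The same 5 genes were those with a peak anywhere in the locus, which 41.2% of protein-coding genes had. In all, 13 WT peaks lay at the 10 loci, 8 of them at promoters and 5 farther away. The peaks were unevenly shared, with 4 at Zic2, 3 each at Lef1 and Lefty1, 2 at Pou3f1 and 1 at Otx2. Across the genome 2.62% of protein-coding genes had 3 or more peaks in their locus, and the mean was 0.566 peaks per gene. Of the 8 promoter peaks, 6 scored below the WT median of 82, and with promoter peaks held to that score only Zic2 and Lefty1 kept one (2 of 10, beside 13.0% of all genes). Held to 500 bp from a TSS, the count was again 2, Zic2 and Lefty1, beside 21.8% of all genes.

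**Figure D1:**
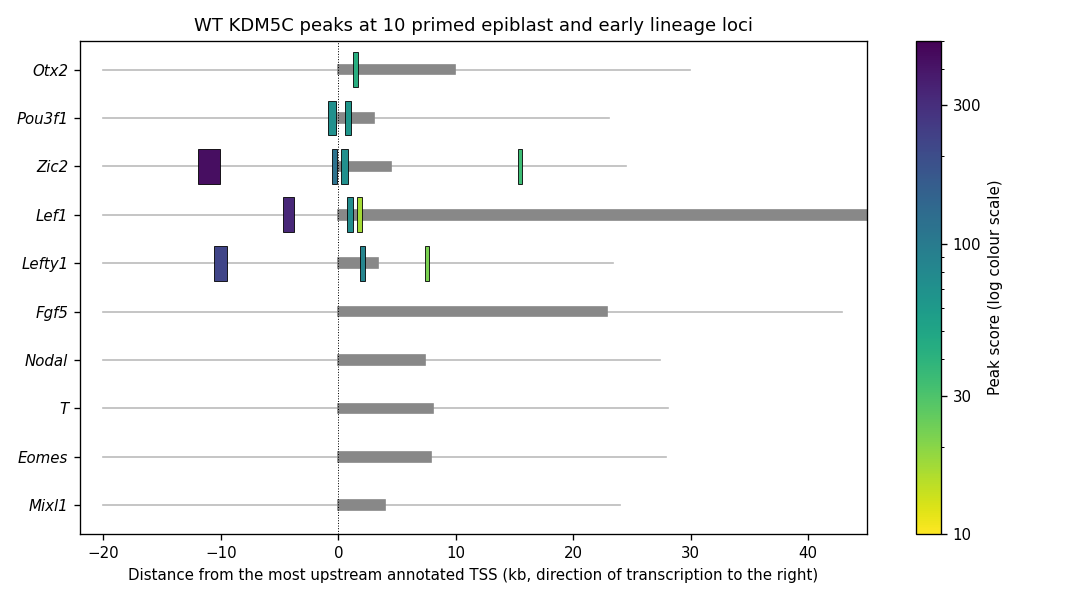
Map of the 10 loci, with the distance from the most upstream annotated TSS in kb on the x axis, the gene body as a grey bar, the flanks as a thin line and each WT peak as a box coloured by its score on a log scale. Boxes occur in 5 rows only, with dark boxes (scores of 223 to 435) upstream of Zic2, Lef1 and Lefty1, and the Lef1 gene is cut off at the right edge, beyond which its locus holds no peak.

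Otx2, the homeobox transcription factor that moves the enhancer use of pluripotent cells towards the primed state and later patterns the head, had 1 peak, the fewest among the 5. Its locus (chr14:49277354-49287319, minus strand, 7 annotated TSSs) held a single 370 bp peak at chr14:49285687-49286056, in an intron. The peak scored 43 at a fold enrichment of 2.52, and 20.5% of all WT peaks had a lower score. Its summit lay 725 bp upstream of the nearest Otx2 TSS and 1398 bp downstream of the most upstream one.

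Pou3f1, a POU-domain transcription factor of the primed epiblast and of neural and glial precursors, carried a pair of peaks on either side of its start (gene at chr4:124334889-124337899, plus strand). The upstream peak, at chr4:124334029-124334645, scored 71 with a fold enrichment of 3.11, and its summit lay 646 bp before the TSS. The downstream peak, at chr4:124335472-124335999 in coding sequence, scored 64 with a fold enrichment of 3.39, and its summit lay 852 bp past the nearest TSS. The 826 bp between them were free of any peak and held both annotated Pou3f1 TSSs. The pair therefore had nearly equal scores, each below the WT median, with the start site in the uncalled stretch.

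Zic2, a zinc finger transcription factor needed for forebrain and neural tube development, had the largest number of peaks (gene at chr14:122874604-122879074, plus strand, 3 TSSs). As at Pou3f1, a pair of peaks flanked the start. The upstream one (chr14:122874071-122874459) scored 115 at a fold of 3.63, the highest score among the promoter peaks of the 10 genes, with its summit 350 bp before the TSS. The downstream one (chr14:122874787-122875465, in coding sequence) scored 71 at a fold of 3.35, with its summit 482 bp past the nearest TSS. The 327 bp between the pair held 2 of the 3 Zic2 TSSs.

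The other 2 peaks of the Zic2 locus lay at neighbouring genes. The peak of highest score at any of the 10 loci, 435 at a fold of 8.13, lay 10106 bp upstream of Zic2, at chr14:122862675-122864498. Its summit fell in the coding sequence of Zic5, a related gene transcribed in the opposite direction, and its midpoint was 1313 bp from the Zic5 TSS, outside the 1 kb limit for a promoter. It was 1824 bp wide, and only 24 WT peaks were wider. On the other side, a weak peak (score 34, fold 2.47) lay 10816 bp downstream of Zic2 and 250 bp from the TSS of Gm10837. Beyond the flank limit, the nearest WT peak was on the upstream side, a peak of score 36 at Gm5089, 24100 bp from Zic2.

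Lef1, the DNA-binding partner of β-catenin in Wnt signalling, had its strongest peak outside the gene (gene at chr3:130813389-130927274, plus strand, 3 TSSs). That peak, at chr3:130808673-130809645, lay 3744 bp upstream of the gene in sequence without an annotated gene. It scored 324 at a fold of 7.48, above 90.1% of all WT peaks. Inside the gene, a peak at chr3:130814131-130814632 scored 75 (fold 4.13) with its summit 981 bp past the most upstream TSS, in annotated UTR. A further intronic peak at chr3:130814970-130815411 scored 17 (fold 2.38), the lowest at the 10 loci, and 2.11% of WT peaks scored lower. The 337 bp between these 2 intragenic peaks held no TSS, so Lef1 did not share the flanking layout of Pou3f1 and Zic2. The midpoint of the stronger intragenic peak was 992 bp from a TSS, just inside the 1 kb limit, and that of the weaker one 525 bp. The next WT peak beyond the flank was 25072 bp upstream of the gene, with a score of 37.

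**Figure D2:**
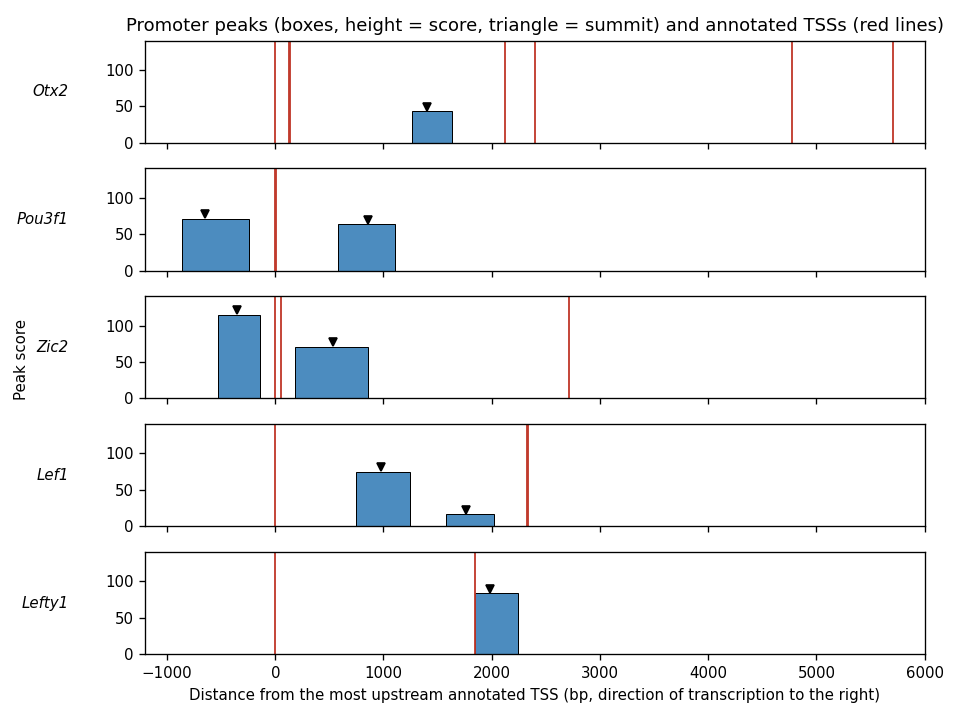
Promoter peaks of the 5 genes, with distance from the most upstream annotated TSS in bp on the x axis and peak score on the y axis of each panel. Boxes are peaks, triangles their summits and red lines annotated TSSs. At Pou3f1 and Zic2 the boxes stand on either side of the first red lines, and at Lefty1 alone a box touches one.

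Fgf5, the ligand whose transcript is the usual marker of the primed epiblast, had no WT peak in its gene or flanks (chr5:98683203-98706049, plus strand). The nearest WT peak upstream was 68195 bp away, at the start of A730035I17Rik, with a score of 48. The nearest one downstream was 975325 bp away, at Rasgef1b, with a score of 83. The Fgf5 promoter was nevertheless CpG-rich, with an observed to expected CpG ratio of 0.738 and a GC content of 65.5% over the 500 bp on either side of the TSS.

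Among the Nodal signalling members, the ligand gene had no peak and the inhibitor gene had 3. Nodal, the TGF-β family ligand that patterns the epiblast (chr10:60880720-60888086, plus strand), was flanked by WT peaks at 50535 bp downstream, at Lrrc20 with a score of 44, and at 730408 bp upstream, at Cdh23 with a score of 151. Lefty1, the secreted Nodal antagonist (chr1:182865153-182868531, plus strand, 2 TSSs), had its strongest peak 9472 bp upstream, at chr1:182854599-182855681, in sequence without an annotated gene. That peak scored 223 at a fold of 5.86, above 83.4% of all WT peaks. The promoter peak of Lefty1 scored 84 at a fold of 3.90 and lay in an exon, 1983 bp past the most upstream TSS at its summit. It was assigned to the promoter through an internal TSS 134 bp before the summit, and with the TSSs of coding transcripts alone Lefty1 had no promoter peak. The third peak at this locus scored 22 (fold 2.32), lay 4023 bp downstream and was centred 12 bp from the TSS of the neighbouring gene Tmem63a.

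Lefty1 has a close neighbour and paralogue in Lefty2, and the exonic peak shares sequence with it. Of the 348 stretches of 50 bases in the Lefty1 promoter peak, 120 (34.5%) occurred letter for letter at Lefty2, each of them inside a Lefty2 peak of score 260 and fold 6.39. The read length was 50 bp and the authors kept uniquely mapped reads, so a read identical in both genes could not be placed in either. Such reads did not count towards the score of the Lefty1 exonic peak, and how the shared stretches moved it was not tested. Exact copies alone were counted here, whereas the authors' alignment allowed mismatches, so nearly identical stretches are not in this count. The Lefty2 peak lay 40166 bp from Lefty1, outside its flank.

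The primitive streak genes T, Eomes and Mixl1, like Fgf5 and Nodal, had no WT peak in the gene or its flanks. T, the T-box factor of nascent mesoderm (chr17:8627288-8635361, plus strand), had its nearest WT peak 29809 bp upstream, a weak one of score 21 that was 7807 bp from the TSS of T2. Downstream of T the nearest was 358364 bp away, at Pde10a, with a score of 14. Eomes, the T-box factor of the streak and definitive endoderm (chr9:118387330-118395250, plus strand), had none within 225385 bp, where a peak of score 35 marked Itga9. Upstream of Eomes the nearest was 327341 bp away, at Gm17399, with a score of 898. Mixl1, a homeobox factor of mesendoderm (chr1:182623174-182627165, minus strand), had its nearest peak 28969 bp upstream at the start of Acbd3, with a score of 45, and the next 123584 bp downstream at Parp1, with a score of 222. With flanks of 50 kb in place of 20 kb, the T and Mixl1 loci were counted as well, which made 7 of 10 beside 54.3% of all genes. Absence from the list means that no peak passed the authors' q-value limit, and a weaker enrichment cannot be seen in these data.

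No KO peak lay at any of the 10 loci, and none of the 13 WT peaks overlapped a KO peak. Among all protein-coding genes the KO list gave a promoter peak to 0.0939% and a locus peak to 0.286%, and a count of 0 among 10 genes is close to those background shares. The KO peak closest to one of these genes lay 315638 bp from Nodal. The lists were called separately, with more WT than KO samples behind them according to the methods, so the difference in genotype and the difference in samples cannot be told apart by list length.

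The 13 WT peaks ranged in score from 17 to 435 with a median of 71, against 82 for all WT peaks, and in this range 8 lay below that median and 2 in its top 10%. Their median width was 502 bp and their median fold enrichment 3.39, beside 524 bp and 3.72 for all WT peaks. The promoter peaks and the more distant ones differed in median score, over 8 and 5 peaks only. The 8 promoter peaks had scores of 17, 43, 64, 71, 71, 75, 84 and 115, and the 5 distant peaks had scores of 22, 34, 223, 324 and 435. The promoter set had a median of 71, beside 87 for all WT promoter peaks. The distant set had a median of 223, given here without a like value for all distant WT peaks. The ranges overlapped, because the distant peaks at Tmem63a and Gm10837, which lay within 1 kb of the TSSs of those genes, were weak. For each gene with a promoter peak, the best promoter score was 43 for Otx2, 71 for Pou3f1, 75 for Lef1, 84 for Lefty1 and 115 for Zic2, and with no replicates neighbours in this order cannot be separated. Over all protein-coding genes with a promoter peak, the median of that value was 90.

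**Figure D3:**
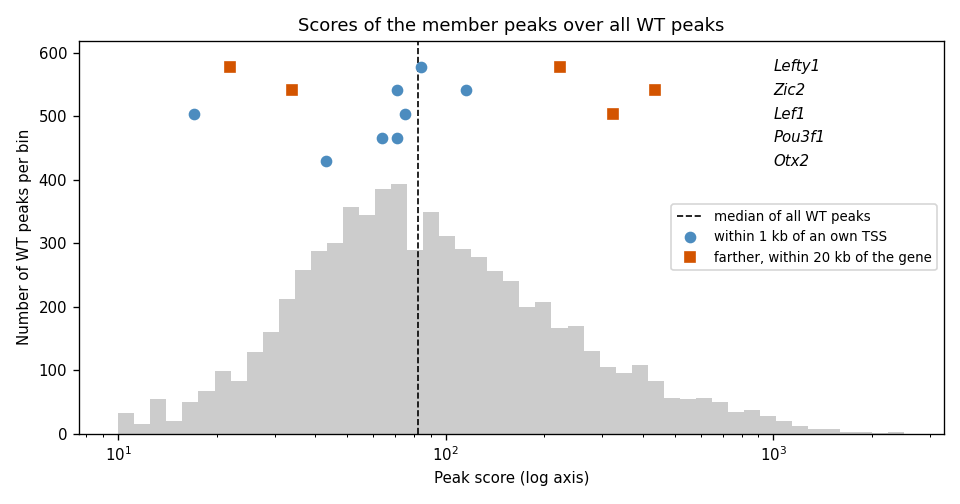
Score of each WT peak at the 5 loci (points, one row per gene) above a histogram of the scores of all 6916 WT peaks, on a log x axis, with the number of peaks per bin on the y axis for the histogram alone. Circles are promoter peaks, squares are peaks farther away, and the dashed line is the WT median of 82. Most circles lie to its left, and 3 of the 5 squares lie far to its right.

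The placement of the promoter peaks relative to the TSS set them beside the usual pattern. Only 1 promoter peak in 8, the Lefty1 exonic peak that began at an internal TSS, covered an annotated TSS of its own gene, whereas 71.5% of all WT promoter peaks (3620 of 5064) covered an annotated TSS. The distance between summit and nearest own TSS had a median of 607 bp and ran from 134 to 981 bp. Over all WT promoter peaks that distance had a median of 159 bp and a 90th percentile of 508 bp, which 5 of the 8 exceeded. A pair of promoter peaks at the same gene was found at Pou3f1, Zic2 and Lef1, 3 of the 5 genes with a promoter peak, beside 4.61% of all such genes (247 of 5358). An own TSS lay in the gap between promoter peaks at 66.4% of those 247 genes, and at Pou3f1 and Zic2 among the 3. The Otx2, Pou3f1, Zic2 and Lef1 promoter peaks shared this placement beside the start, although Otx2 and Lef1 differed from the others in having all of theirs inside the gene. Because each peak is a call with a threshold, a pair of peaks and a single peak with a dip cannot be told apart here.

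KDM5C peaks in these cells lay mainly in CpG-rich sequence, here defined as an observed to expected CpG ratio of at least 0.6 and a GC content of at least 50%. Of the 13 peaks, 12 were CpG-rich, beside 81.6% of all WT peaks (5641 of 6916). The exception was the Lefty1 upstream peak, with a CpG ratio of 0.151 and a GC content of 52.8%. It was also the peak whose summit window held the single CG pair. The remaining ratios ran from 0.60 at the Lefty1 exonic peak to 1.03 at the downstream Zic2 promoter peak.

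Among these 10 genes, the CpG content around the most upstream TSS did not separate those with a promoter peak from those without. Over all protein-coding genes it differed, with a median CpG ratio of 0.770 for those with a promoter peak and 0.392 for those without. Of the 10 promoters 7 were CpG-rich, and 3 of these had a promoter peak (Pou3f1, Lef1 and Zic2), a share near the 44.1% of all CpG-rich promoters (4353 of 9879). The other 4 CpG-rich promoters, those of Fgf5, T, Eomes and Mixl1, had ratios of 0.738, 0.647, 0.622 and 0.813 and no peak. Lef1, with a peak, had a ratio of 0.663, in the midst of these. Of the 3 promoters that were not CpG-rich, Otx2 (0.520) and Lefty1 (0.269) had a peak counted through an internal position and Nodal (0.472) had none.

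**Figure D4:**
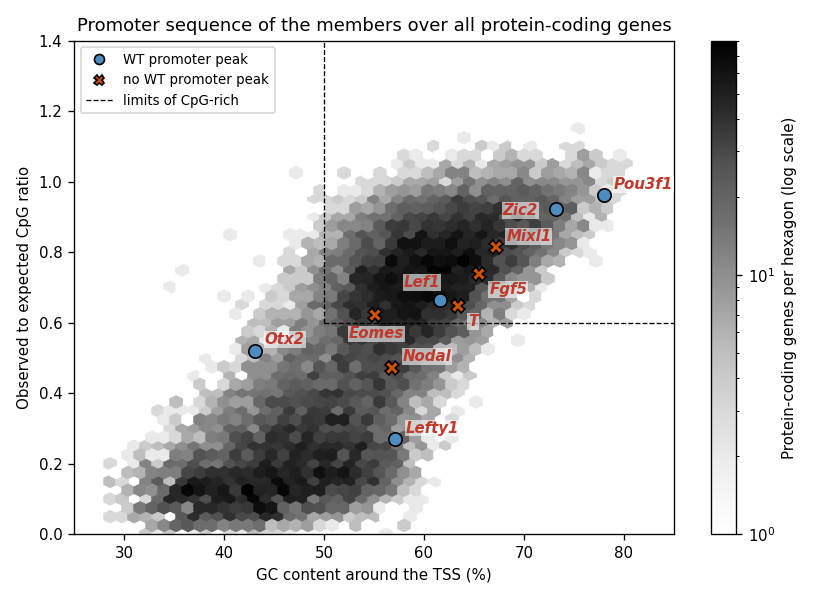
GC content in percent (x axis) against observed to expected CpG ratio (y axis) over the 500 bp on either side of the most upstream TSS. Grey hexagons show how many protein-coding genes fall in each area, circles are the 5 genes with a WT promoter peak, crosses the 5 without, and dashed lines the limits of CpG-rich sequence. Circles and crosses are mixed, with Lef1 and T side by side.

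Short consensus words of transcription factors were counted on both strands in the 200 bp around each of the 13 summits. The E-box CACGTG, bound by MYC and related factors, occurred in 2 windows, those of the Lef1 upstream peak and the peak within Zic5, where it can be read in the sequences above as caCGtg, and in 15.8% of all WT windows. The E2F core GCGGGA occurred in 2, both at Lef1, beside 30.7%. The word CACCTG, known from ZEB and SNAIL factors, occurred in 2, both at the Zic2 locus, beside 20.7%. The T-box word GGTGTGA occurred in none, beside 2.79% of all WT windows. No word was found at more than 2 of the 13 summits.

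The wider pathways of these genes had KDM5C peaks at some components and not at others, and their counts are to be read beside 24.0% of all protein-coding genes and 44.1% of CpG-rich promoters. In the Nodal and Activin pathway 6 of 14 genes had a promoter peak, among them Smad2, a signal-transducing SMAD, with a score of 779 and a fold of 13.48, and Lefty2 with 260. Pcsk6, a proprotein convertase that processes Nodal, scored 77 and Smad4, the common partner SMAD, scored 50. Lower scores belonged to Acvr1c and Smad3. Of the receptor genes Acvr1b, Acvr1c, Acvr2a and Acvr2b, Acvr1c alone had a promoter peak. In the Fgf pathway 5 of 11 genes had one, namely the target gene Etv4 with a score of 209, the receptor Fgfr1 with 59, the phosphatase gene Dusp6 with 47, the ligand Fgf4 with 41, and Fgfr3. Counted over CpG-rich promoters alone, 5 of 8 Nodal and Activin genes and 4 of 10 Fgf genes had a peak. Fgfr1 was counted here as not CpG-rich, although another annotation record of it, with the same peak, had a CpG-rich promoter. In the Wnt pathway, in which Lef1 acts, 1 of 10 had one, Ctnnb1, which encodes β-catenin, with a score of 52.

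Of 12 other genes of the primed or formative epiblast, 6 had a promoter peak, beside the 24.0% of all genes. The adhesion gene Cdh2 scored 177, the SOX factor genes Sox11 and Sox4 scored 118 and 79, and the transcription factor gene Grhl2 scored 64, with Utf1 and Foxd3 lower. All 6 were CpG-rich, out of 8 CpG-rich promoters in that list. Of 15 other germ layer genes found, 3 had a promoter peak, a share near that of all genes. These included the mesoderm factor genes Mesp2, with a score of 1092 and a fold of 14.25, and Mesp1 with 259, and the endoderm factor gene Foxa2 with 74, and none of the 3 promoters was CpG-rich. Among 24 paralogues of the 10 genes 7 had a promoter peak, again near the share of all genes, led by Lefty2 at 260, Gdf1 at 93, Zic1 at 50 and Tbx2 at 46. The lists share some genes, so their counts are not independent. The lists were also chosen with earlier results of these data known.

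**Figure D5:**
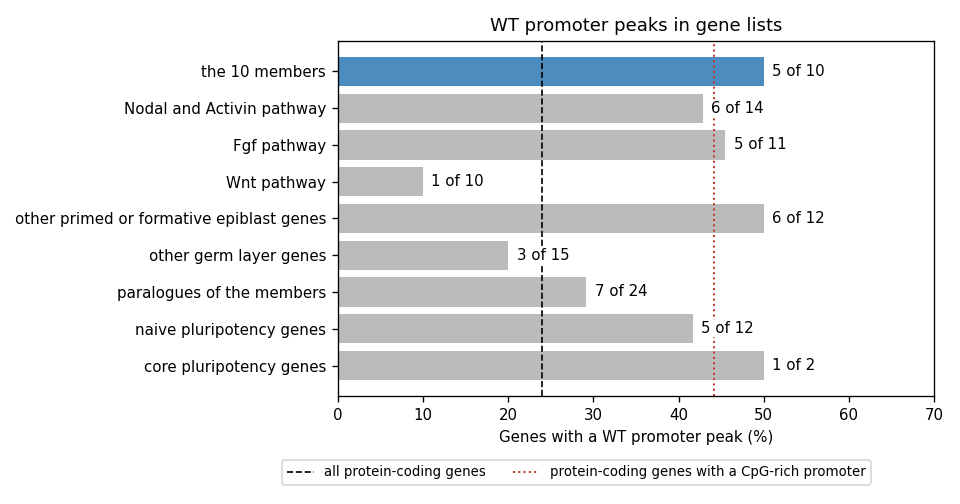
Share of genes with a WT promoter peak in percent (bars, with the counts beside them) for the 10 genes and 8 comparison lists. The dashed line marks all protein-coding genes (24.0%) and the dotted line those with a CpG-rich promoter (44.1%). Most bars lie between or near these lines, and the Wnt pathway, at 1 of 10, lies lowest.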

How the data were processed

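KDM5C ChIP-Seq was performed on WT and KO EpiLCs, with 1 immunoprecipitated and 1 input sample of each, grouped from their titles. Per the labels, the authors aligned reads to mm9 with Bowtie (1.1.2 in the submitters' processing notes, although the methods name another version), used uniquely mapped reads alone, and MACS2 (2.1.0.20140616) was run against input DNA. The authors deposited 1 peak list per genotype, with a score, the fold enrichment over input (a ratio), the −log10 q-value, a −log10 p-value that was not used and the summit of each peak. The score equalled 10 times the −log10 q-value, decimals dropped, in all 6980 entries, and the largest q-values were 0.0977 (WT) and 0.0948 (KO). The peak lists hold no read counts, so no counting interval is given. Fly chromatin was used for the authors' tracks and not for these peaks.

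Peaks were assigned with Python 3.11.15, pandas 2.3.3 and NumPy 2.4.6 to GENCODE genes on NCBIM37, the same assembly as mm9, and 17 WT and 3 KO contig peaks were left out. A promoter peak had its midpoint within 1000 bp of any annotated TSS, a locus peak overlapped the gene or 20000 bp on either side, and lists were compared by an overlap of at least 1 bp. The assignment was checked on simulated data. All 10 genes, the genes nearest to their peaks, and up to 4 genes of each list by score were named. The rule for the 10 genes used no measured value, but the genes and lists were chosen with earlier results of these data known. The sequence of the Lefty1 exonic peak is not reported here. Alternatives for the windows, score limits, annotation and CpG limits were tried.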

Additional observations from a re-analysis of the deposited data

How the results depend on the processing

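No paired analysis was possible because WT and KO come as 1 peak list apiece, and no replicate could be left out. Of 111 alternative values for 17 results, 71 stayed within the limit for no change, 40 moved and 0 reversed. The count of 5 genes with a promoter peak became 2 within 500 bp or at scores from the WT median, and 0 at scores from the 90th percentile. The shares of all protein-coding genes under these settings were 21.8%, 13% and 2.79%. The count of 5 genes with a locus peak became 3 and 2 at the 2 score limits, beside 24.7% and 5.82% of all genes. The 13 peaks became 6 within gene bodies alone, 5 at the median score and 2 at the 90th percentile. The 12 CpG-rich peaks became 6 within gene bodies, where all 6 remaining peaks were CpG-rich. Promoter peaks over an own TSS went from 1 to 0 with coding transcripts alone, an alternative chosen after seeing the data. At the median score, which left 13% of all genes with a promoter peak, the lists had 2 genes (Nodal and Activin), 1 (Fgf), 0 (Wnt), 2 (other primed), 2 (paralogues), 3 (naive) and 0 (core). At the 90th percentile, which left 2.79% of all genes, they had 1 (Nodal and Activin), 1 (other germ layer) and 0 in each of the others. The Wnt count of 1 became 3 within 5 kb and 2 with any overlap, and the core count of 1 became 2 within 5 kb and 0 within 500 bp. Of all genes, 27% had a promoter peak within 5 kb, 24.4% with any overlap and 21.8% within 500 bp. KO peaks at the 10 loci numbered 0 under every alternative run. The lists hold no read counts, and weak enrichment below the q-value limit is unseen.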

Other observations

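Genes of naive pluripotency, the state that EpiLCs leave, also had KDM5C promoter peaks in WT cells. Of 12 such genes found under their listed symbol 5 had one, beside 24.0% of all protein-coding genes and 44.1% of those with a CpG-rich promoter. They were the orphan receptor gene Esrrb with a score of 244, the Krüppel-like factor genes Klf5 and Klf4 with 105 and 101, Tcl1 with 59, and Tbx3. Of the core pair of pluripotency genes, Sox2 had 2 promoter peaks, the better with a score of 66. None of these genes had a KO promoter peak, beside 0.0939% of all protein-coding genes. Another listed naive gene, Tfcp2l1, was missed because the annotation names it Tcfcp2l1. It is not among the 12 and had a WT promoter peak as well, with a CpG ratio of 0.584 around its TSS.

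The Lefty1 exonic peak and its counterpart at Lefty2 lay at similar places in their genes. The summit of the Lefty2 peak was 106 bp from the nearest Lefty2 TSS and 1456 bp past the most upstream one, and that of the Lefty1 peak was 134 and 1983 bp from the corresponding sites. The Lefty2 peak scored 260 and the Lefty1 peak 84, and the stretches identical in both were not available to uniquely mapped reads of 50 bp.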
